A study of Homo sapiens with 12 samples.

Results

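The expression of 8 genes was followed in 2 cell lines of HPV+ head and neck cancer (HNSCC) treated with the BET inhibitor JQ1. They comprise 5 α-arrestins (TXNIP, ARRDC1, ARRDC2, ARRDC3 and ARRDC4), the glucose-sensing factors MondoA (gene MLXIP) and ChREBP (gene MLXIPL), and their DNA-binding partner MLX. They are 8 of the 20738 genes in the table of estimated counts. They were taken by symbol, except TXNIP, which is listed under an older Ensembl ID, ENSG00000117289. The family was selected on its log2 fold changes with JQ1, that is, with these values already known, so the values with JQ1 and the difference of the responses describe these genes and are not tested below. Where members are counted at an adjusted p under 0.05 in these comparisons, the count is a description as well. The comparison of the DMSO-treated lines was tested, although it shares its libraries with the JQ1 comparisons. A gene picked for a large rise is likely to have a low level with DMSO.

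Total RNA was sequenced from UM-SCC-47 and UPCI-SCC-090 cells, both grown in high-glucose medium with serum and exposed for 72 h to 500 nM JQ1 or to 0.1% DMSO. JQ1 binds the bromodomains of BET proteins and displaces them from acetylated chromatin, and DMSO is its solvent. Each of the 4 groups (UM-SCC-47 DMSO, UM-SCC-47 JQ1, UPCI-SCC-090 DMSO and UPCI-SCC-090 JQ1) had 3 libraries. Each line stands for 1 tumor, and the sources do not say whether replicates came from separate cultures, so p-values measure only the spread between these libraries, which may be technical.

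α-Arrestins are adaptor proteins that bring ubiquitin ligases to membrane proteins and so send transporters and receptors to endosomes. TXNIP binds and inhibits thioredoxin, and TXNIP and ARRDC4 lower the uptake of glucose. MondoA and ChREBP, each paired with MLX, respond to glucose 6-phosphate, enter the nucleus and activate TXNIP and ARRDC4 through carbohydrate response elements, which are pairs of E-box-like sequences at a fixed spacing, so that the 2 arrestins close a feedback loop on glucose entry.

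Libraries held 20349275 to 30788657 estimated counts, and levels are given as CPM, the count relative to library size, after TMM scaling over the 12 libraries. The 7 squamous markers summed to 2320 to 2391 CPM with DMSO and 2764 to 3502 with JQ1 in UM-SCC-47. In UPCI-SCC-090 they summed to 1657 to 2115 and 2310 to 2468 CPM, with KRT14 at 0.698 to 1.87 and KRT5 at 5.72 to 12.1. Single markers did not all follow these sums. With JQ1 in UM-SCC-47, KRT5 went from 545–663 to 144–201 CPM and TP63 from 290–481 to 38.0–63.9. KRT17 went from 308–402 to 1449–2152 CPM there. In UPCI-SCC-090, TP63 went from 423–914 to 68.5–355 CPM and CDH1 from 859–984 to 1420–2086. CDKN2A, which is high in HPV+ tumors, was at 188 to 513 CPM. The 5 blood cell markers summed to 3.80 to 4.54 CPM with DMSO and 7.18 to 9.44 with JQ1 in UM-SCC-47, where HBB was at 0, and moved the other way in UPCI-SCC-090, from 5.06 to 6.59 down to 1.38 to 1.93 CPM. Stromal markers summed to 2.69 to 29.2 CPM and the 2 matched endothelial markers to 0.0384 to 8.09 CPM, both lower with JQ1 in each line. The part of these markers in the results was not tested. In 3 libraries the level of a gene, relative to its mean over both treatments of the line, depended steeply on its GC content. A slope of 0.5 or more in size counted as steep, and a change with JQ1 that is related to GC would enter it. The slope per 10 points of GC was −0.51 log2 CPM in UM-SCC-47 JQ1 replicate 3, 0.66 in UPCI-SCC-090 DMSO replicate 2 and −0.73 in UPCI-SCC-090 JQ1 replicate 3, and values without these libraries are given for the members that they move. HEXIM1, whose rise is a common mark of BET inhibition, had a log2 fold change of 1.83 ± 0.13 (SE, edgeR adjusted p = 0.000236) in UM-SCC-47 and of 2.26 ± 0.18 (adjusted p = 0.0037) in the other line.

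TXNIP and ARRDC4 were the members with the largest changes in UPCI-SCC-090, and the sequences before their start sites are shown because MLX complexes are known to act there. Of the 8 members, all had an entry in the RefSeq promoter table (GRCh38.p14), with 11 start sites in all. The 250 bases before a start site are printed 5′ to 3′ in the direction of the gene, for TXNIP chr1:145996580-145996829 on the minus strand and for ARRDC4 chr15:97960453-97960702 on the plus strand. Capitals mark matches on either strand to CACGTG (the E-box), to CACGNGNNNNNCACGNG (an E-box-like pair) and to CCAAT, which appears as ATTGG on the other strand.
TXNIP: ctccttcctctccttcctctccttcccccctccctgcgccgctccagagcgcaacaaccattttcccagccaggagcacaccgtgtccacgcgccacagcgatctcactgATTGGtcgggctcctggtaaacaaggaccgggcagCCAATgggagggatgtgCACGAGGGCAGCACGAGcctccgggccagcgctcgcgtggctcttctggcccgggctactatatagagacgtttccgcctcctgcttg
ARRDC4: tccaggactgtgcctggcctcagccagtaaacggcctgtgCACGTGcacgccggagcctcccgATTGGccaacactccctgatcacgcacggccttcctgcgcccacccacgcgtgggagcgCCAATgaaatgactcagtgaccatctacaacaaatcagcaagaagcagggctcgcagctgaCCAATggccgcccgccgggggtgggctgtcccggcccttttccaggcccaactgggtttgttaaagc
In the TXNIP window the E-box-like pair lay 88 to 72 bases before the start, next to 2 CCAAT boxes. A pair of this form was found in 16 of 35116 windows of the table (0.0456%), and among the windows of the members only in this one. The ARRDC4 window held 1 E-box, 210 to 205 bases before the start, and 3 CCAAT boxes. The MLX window was the only other member window with an E-box, 50 to 45 bases before its start. CACGTG was present in 6.34% and CCAAT in 32.0% of all windows. These letters were chosen with the sequences in view, and a match describes the sequence only.

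TXNIP, the inhibitor of thioredoxin and of glucose uptake, rose more with JQ1 than any other gene tested in UPCI-SCC-090. Its gene lies at chr1:145438490-145442635 (GRCh37). In UM-SCC-47 DMSO libraries TXNIP was at 398, 391 and 395 CPM, and with JQ1 it was at 1329, 1876 and 1292 CPM. In UPCI-SCC-090 it was at 2.66, 3.11 and 4.68 CPM with DMSO, from estimated counts of 80, 71 and 145. With JQ1 it reached 3884, 4563 and 3264 CPM in that line, from counts of 106830, 94259 and 85088. None of the 4 groups overlapped another, and the order of the lines was opposite without and with JQ1, as the plot of levels by library shows. The log2 fold change with JQ1 was 1.91 ± 0.18 (SE, n = 3 against 3; 3.76-fold) in UM-SCC-47 and 10.01 ± 0.33 (1032-fold) in UPCI-SCC-090, the highest of 13150 genes tested there. In bulk RNA a change in the cells that express a gene and a change in RNA per cell cannot be told apart.

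ARRDC4, the α-arrestin closest to TXNIP in function and likewise a target of MondoA, was also higher with JQ1 in both lines, at lower levels, but its order between the lines did not turn. Its gene lies at chr15:98503933-98517063. In UM-SCC-47 the libraries were at 17.4, 12.7 and 20.1 CPM with DMSO and at 106, 73.6 and 175 CPM with JQ1. In UPCI-SCC-090 DMSO libraries the gene was barely detected, at 0.200, 0.0438 and 0.226 CPM, from counts of 6, 1 and 7. Their sum of 14 counts has an exact Poisson interval of 7.65 to 23.5 (95%, counting error only). With JQ1 the same line had 15.1, 5.37 and 24.5 CPM, from counts of 414, 111 and 638. The groups did not overlap in either line, and the treated UPCI-SCC-090 libraries lay below the treated UM-SCC-47 ones and overlapped with the untreated UM-SCC-47 ones. The log2 fold change was 2.81 ± 0.37 (7.0-fold) in UM-SCC-47 and 6.46 ± 0.92 (88.1-fold) in UPCI-SCC-090, where ARRDC4 had rank 10 among the genes tested.

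ARRDC1, which recruits the ESCRT protein TSG101 and buds vesicles from the plasma membrane, was at 46.9, 54.1 and 46.0 CPM in UM-SCC-47 with DMSO and at 85.2, 88.1 and 64.1 CPM with JQ1. In UPCI-SCC-090 its libraries were at 31.7, 64.6 and 50.4 CPM with DMSO and at 76.6, 122 and 63.2 CPM with JQ1. The groups were apart in UM-SCC-47 and overlapped in the other line. Its log2 fold changes were 0.68 ± 0.16 and 0.71 ± 0.31. They moved to 0.94 and 1.32 without the libraries of steep GC slope and to 0.92 and 1.37 after GC correction. In UM-SCC-47 the former setting left out JQ1 replicate 3 alone, so GC cannot be told apart there from that library. The UM-SCC-47 value was 0.42 by library size alone.

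ARRDC2, a less studied α-arrestin, was at 12.8, 14.97 and 12.4 CPM in UM-SCC-47 with DMSO and at 10.3, 11.3 and 9.46 CPM with JQ1. In UPCI-SCC-090 it was at 13.7, 21.7 and 16.9 CPM with DMSO and at 10.8, 15.8 and 7.56 CPM with JQ1. Its log2 fold changes were −0.38 ± 0.17 and −0.75 ± 0.32, and only the UM-SCC-47 groups were apart. Without the libraries of steep GC slope the values were −0.19 and −0.16, and by library size alone −0.64 and −0.95.

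ARRDC3, which directs integrin β4 to degradation, had the widest spread between replicates of all members, with an SD of 1.05 log2 CPM within groups. Its libraries were at 54.6, 47.7 and 69.7 CPM in UM-SCC-47 with DMSO and at 50.2, 19.1 and 161 CPM with JQ1. In UPCI-SCC-090 they were at 47.6, 7.48 and 38.3 CPM with DMSO and at 44.9, 23.6 and 167 CPM with JQ1. The highest treated library of each line was replicate 3 and the lowest library of all was UPCI-SCC-090 DMSO replicate 2, which are the 3 libraries with steep GC slopes. The ARRDC3 transcript has a GC content of 37.2%, the lowest of the members. Its log2 fold changes of 0.41 ± 0.70 and 1.32 ± 0.98 turned to −0.63 ± 0.36 and −0.25 ± 0.50 without these libraries, so no direction can be given. In UM-SCC-47 the sign turned without JQ1 replicate 3 alone.

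**Figure D1:**
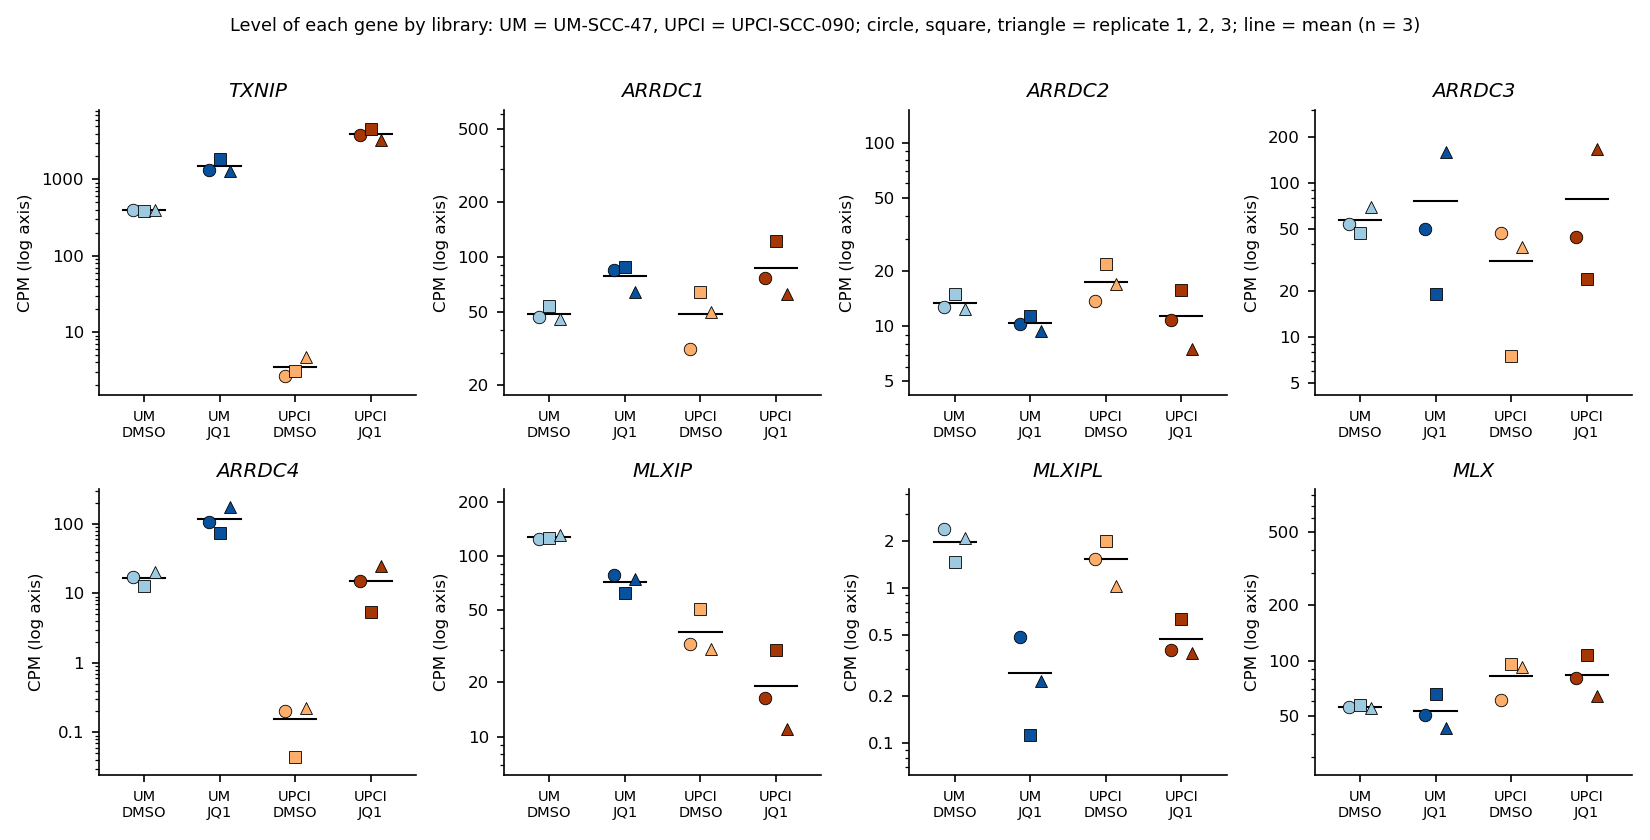
Level of each member in the 12 libraries, as CPM on a log axis. Points are libraries (circle, square and triangle for replicates 1, 2 and 3), and lines are group means (n = 3). TXNIP and ARRDC4 are near the bottom of their range in UPCI-SCC-090 with DMSO, at 2.66 to 4.68 and 0.0438 to 0.226 CPM, and rise with JQ1 in both lines.

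**Figure D2:**
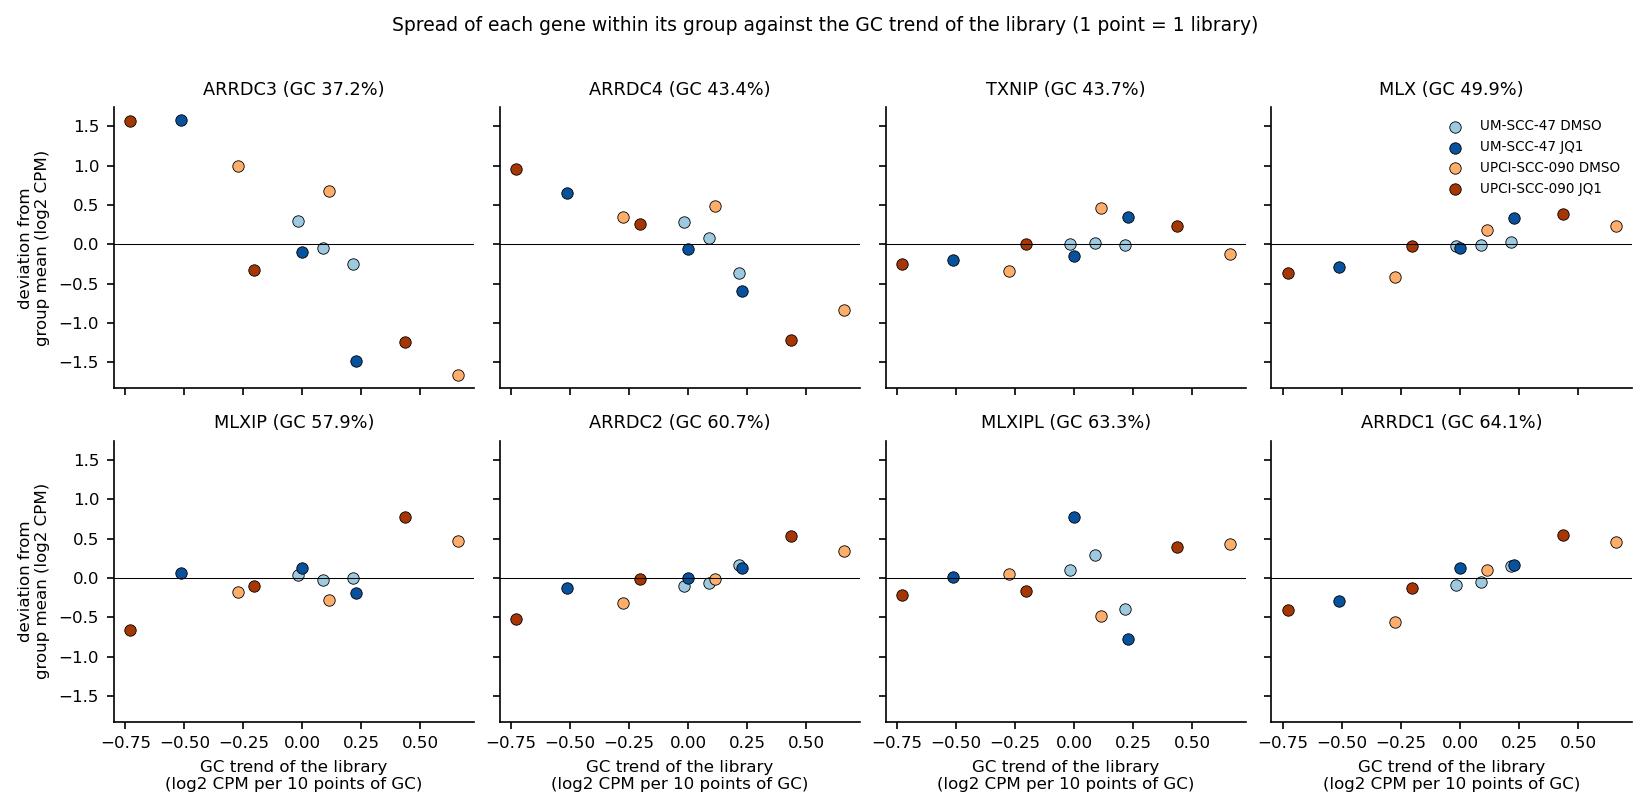
Deviation of each library from its group mean (log2 CPM) against the GC trend of the library (log2 CPM per 10 points of GC), with the members ordered by GC content. ARRDC3 (37.2% GC) runs from 1.58 in UM-SCC-47 JQ1 replicate 3 to −1.67 in UPCI-SCC-090 DMSO replicate 2, whereas TXNIP stays between −0.34 and 0.46.

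ARRDC4 also varied along the GC trend within groups, from −1.21 log2 CPM in UPCI-SCC-090 JQ1 replicate 2 to 0.96 in replicate 3 of the same group, as the plot against the GC trend shows. TXNIP, with a similar GC content (43.7% against 43.4%), did not follow it in that way. With log2 CPM corrected for GC content or with any single library left out, the change of ARRDC4 with JQ1 stayed between 2.53 and 3.06 in UM-SCC-47 and between 5.65 and 6.91 in UPCI-SCC-090.

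The glucose-sensing factors themselves were lower with JQ1. MLXIP (MondoA), at chr12:122516628-122631894, was at 124, 126 and 130 CPM in UM-SCC-47 with DMSO and at 78.4, 62.5 and 74.8 CPM with JQ1. In UPCI-SCC-090 it was at 32.5, 51.0 and 30.4 CPM with DMSO and at 16.4, 30.01 and 11.05 CPM with JQ1. The groups were apart in both lines, narrowly in UPCI-SCC-090. The log2 fold change was −0.83 ± 0.13 in UM-SCC-47 and −1.14 ± 0.38 in UPCI-SCC-090. The latter ranged from −1.44 without JQ1 replicate 2 to −0.41 without the libraries of steep GC slope, and the former from −1.07 by library size alone to −0.65 after GC correction.

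MLXIPL (ChREBP), the paralog that dominates in liver and fat, was scarce. It was at 2.39, 1.47 and 2.09 CPM in UM-SCC-47 with DMSO and at 0.483, 0.112 and 0.253 CPM with JQ1, from 13, 2 and 5 counts. In UPCI-SCC-090 it was at 1.53, 2.01 and 1.03 CPM with DMSO and at 0.400, 0.629 and 0.384 CPM with JQ1, from 11, 13 and 10 counts. The groups were apart in both lines, with log2 fold changes of −2.73 ± 0.46 and −1.81 ± 0.37. In UPCI-SCC-090 the value was −1.28 without the libraries of steep GC slope.

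MLX, the partner that both factors need to bind DNA, had overlapping groups in both lines. It was at 55.9, 57.5 and 55.3 CPM in UM-SCC-47 with DMSO and at 50.5, 66.1 and 42.9 CPM with JQ1, and in UPCI-SCC-090 at 61.0, 95.9 and 92.4 CPM with DMSO and at 80.7, 107 and 63.9 CPM with JQ1. The log2 fold changes were −0.09 ± 0.18 and −0.11 ± 0.24, and the sign changed with the scaling between libraries and without those of steep GC slope (0.17 and 0.34).

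With a call meaning an edgeR adjusted p under 0.05, 3 members were called higher (TXNIP, ARRDC1, ARRDC4) and 2 lower (MLXIP, MLXIPL) with JQ1 in UM-SCC-47, and 16.1% and 25.5% of the 13440 genes tested were called in these directions. The libraries of the groups did not overlap for 6 members, as for 55.3% of all genes. In UPCI-SCC-090, 2 members were called higher (TXNIP, ARRDC4) and 1 lower (MLXIPL), against 7.67% and 20.4% of 13150 genes, and 4 members did not overlap, against 40.5% of genes. Since the JQ1 response took part in the choice of the set, nothing is read from these counts. ARRDC1 was not called in UM-SCC-47 without DMSO replicate 1, DMSO replicate 3 or JQ1 replicate 1, by library size alone or in 1 fit over the 12 libraries, and MLXIP not in that fit or after GC correction, whereas ARRDC2 was called by library size alone. In UPCI-SCC-090 MLXIPL was not called without JQ1 replicate 1, JQ1 replicate 3 or the libraries of steep GC slope, nor by DESeq2. MLXIP was called there without JQ1 replicate 2, with the replicate number as a block, in 1 fit and after GC correction, and ARRDC1 after GC correction.

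Scaling moved all genes. The median log2 fold change of all genes was −0.03, 0.12 and −0.28 in UM-SCC-47 and −0.14, 0.14 and −0.38 in UPCI-SCC-090 by TMM, by RLE size factors and by library size alone. Relative to any of these medians TXNIP and ARRDC4 were higher with JQ1 in both lines.

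The response to JQ1 was stronger in UPCI-SCC-090 by 8.20 ± 0.38 log2 for TXNIP and by 3.66 ± 0.82 for ARRDC4 in 1 fit over the 12 libraries. These were the 2 members called for this difference, against 6.56% of the 14396 genes tested, and nothing is read from that count either. With single libraries left out the value ranged from 7.94 to 8.40 for TXNIP and from 3.11 to 4.06 for ARRDC4, which was then not called without UM-SCC-47 DMSO replicate 1 or 3, UM-SCC-47 JQ1 replicate 1 or UPCI-SCC-090 DMSO replicate 1, 2 or 3. For the other members the difference was between −0.25 ± 0.43 (ARRDC2) and 1.03 ± 0.64 (MLXIPL).

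The DMSO-treated lines differed in 3 of these genes. The set was selected on changes with JQ1 that use the same DMSO libraries. A low level with DMSO in UPCI-SCC-090 is thus partly built into the choice, and the p-values for TXNIP and ARRDC4 are not independent of it. With DMSO, TXNIP had a log2 fold change of −6.99 ± 0.28 between UPCI-SCC-090 and UM-SCC-47 (edgeR adjusted p = 5.8e-06), and the value for ARRDC4 was −6.79 ± 0.50 (adjusted p = 3.6e-05). MLXIP, which encodes their activator, was also lower, at −1.92 ± 0.21 (adjusted p = 0.000246). All 3 libraries of UPCI-SCC-090 were below all 3 of UM-SCC-47 for these genes and for ARRDC3, and above them for MLX, while 58.2% of all genes had no overlap between the lines. The 3 were called in this direction, as were 25.3% of 14108 genes, and 48.0% of genes were called in either direction, so the share of members called is close to that of all genes. Each of the 3 was called without any single library.

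The remaining members did not pass the threshold in this comparison. The log2 fold change was −0.19 ± 0.25 for ARRDC1 (adjusted p = 0.576), 0.21 ± 0.24 for ARRDC2 (adjusted p = 0.507) and −1.01 ± 0.60 for ARRDC3 (adjusted p = 0.210). It was −0.56 ± 0.32 for MLXIPL (adjusted p = 0.196) and 0.39 ± 0.19 for MLX (adjusted p = 0.137). MLX was called without UPCI-SCC-090 DMSO replicate 1, at 0.75 ± 0.10 (adjusted p = 0.0012), by library size alone (0.51, adjusted p = 0.035) and after GC correction (0.45, adjusted p = 0.024). ARRDC3 (−1.37, adjusted p = 0.006) and ARRDC1 (−0.42, adjusted p = 0.017) were called after GC correction as well.

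**Figure D3:**
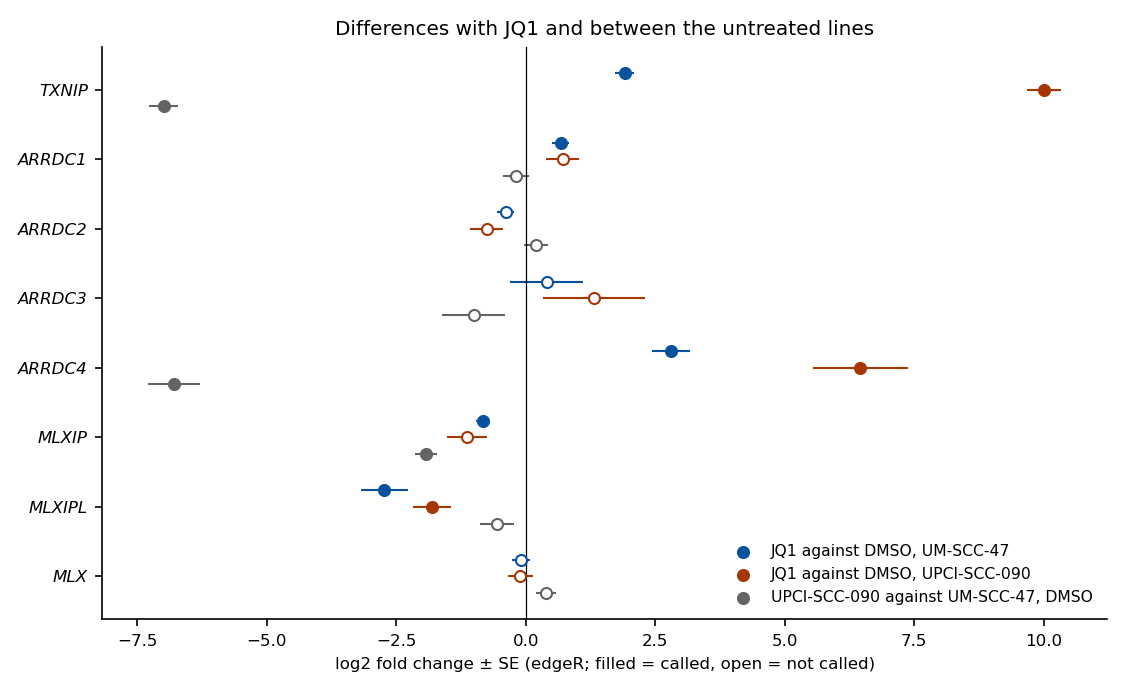
log2 fold changes ± SE of the members from edgeR (n = 3 against 3) for JQ1 in each line and for UPCI-SCC-090 against UM-SCC-47 with DMSO. Filled points had an adjusted p under 0.05, which for JQ1 is a description. TXNIP and ARRDC4 have the largest values in all 3 comparisons except JQ1 in UM-SCC-47, where MLXIPL (−2.73) exceeds TXNIP (1.91) in size.

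Per kilobase of transcript, a scale on which genes can be compared, TXNIP was the most abundant member in UM-SCC-47 with DMSO at 136 ± 1.16 CPM per kb (SD, n = 3). ARRDC1 (31.5), MLX (23.8), MLXIP (15.04) and ARRDC3 (13.5) followed, then ARRDC2 (5.35), ARRDC4 (4.12) and MLXIPL (0.610). In UPCI-SCC-090 with DMSO the leading members were MLX at 35.2 ± 8.15 and ARRDC1 at 31.4 ± 10.6 CPM per kb, which did not differ beyond their spread, whereas TXNIP was at 1.20 ± 0.367 and ARRDC4 was last at 0.0385 ± 0.0242. With JQ1, TXNIP led in both lines, at 518 ± 113 CPM per kb in UM-SCC-47 and 1348 ± 224 in UPCI-SCC-090, ahead of ARRDC1 at 50.9 ± 8.41 and 56.1 ± 19.9. Among 20016 genes with a length, TXNIP moved from place 464 to 155 in UM-SCC-47 and from 10418 to 85 in UPCI-SCC-090. ARRDC4 moved from place 7766 to 2456 and from 14478 to 7640. MLXIP was above MLXIPL per kb in every group, at 15.04 against 0.610 in UM-SCC-47 and 4.51 against 0.469 in UPCI-SCC-090 with DMSO.

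Genes with a profile like these were sought by the root mean square difference of centred log2 CPM over the 12 libraries, among 11649 genes. The nearest to TXNIP outside the family were SLPI (2.20), a secreted protease inhibitor, the calcium-binding S100A14 (2.33), ENSG00000187990 (2.44), which the annotation does not name, the stress gene GADD45B (2.44) and TENT5C (2.46), a poly(A) polymerase. ARRDC4 was nearer to TXNIP (1.97) than any of them. Both belong to a set selected on its JQ1 changes in these same libraries, so nothing is read from that order. For ARRDC4 the nearest were SLPI (1.32), the glutathione peroxidase GPX3 (1.43), the microtubule-binding MAPRE2 (1.49), the cytokine TNFSF9 (1.54) and the chloride channel gene CLIC3 (1.59). SLPI means were 41.9 CPM with DMSO and 50.6 with JQ1 in UM-SCC-47, and 0.392 and 11.3 in UPCI-SCC-090. Its profile thus shared the low DMSO level in UPCI-SCC-090 more than the rise in UM-SCC-47.

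Lists of related genes were described by counts of genes called in each line and by their median log2 fold change, beside the medians of all genes of −0.03 in UM-SCC-47 and −0.14 in UPCI-SCC-090. Of all genes 16.1% were called higher and 25.5% lower in UM-SCC-47, and 7.67% and 20.4% in UPCI-SCC-090. The lists were not tested as sets, and no direction is read for a list from its counts. Hexose transporters, which include reported cargo of α-arrestins such as SLC2A1, had calls in both directions. Of 9 tested in each line, 3 were called higher and 3 lower in UM-SCC-47 (median −0.14), and 2 higher and 4 lower in UPCI-SCC-090 (median −0.82). SLC2A1, the main glucose transporter and a cargo of TXNIP, was at a mean of 84.8 ± 23.3 CPM with DMSO and 264 ± 89.4 with JQ1 in UPCI-SCC-090 (SD, n = 3), a log2 fold change of 1.51 ± 0.27 (adjusted p = 0.00903). In UM-SCC-47 it was at 254 and 233 CPM, with −0.14 ± 0.15 (adjusted p = 0.490). SLC2A6 fell by 3.83 ± 0.52 on the log2 scale in UPCI-SCC-090 (adjusted p = 0.00456). In UM-SCC-47 the fructose transporter SLC2A5 fell by 1.67 ± 0.20 (adjusted p = 0.0012), and the myo-inositol transporter SLC2A13 rose by 2.82 ± 0.29 (adjusted p = 0.000735).

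Glycolysis and lactate export genes were mixed. In UM-SCC-47, 6 of 24 were called higher and 6 lower (median −0.20), and in UPCI-SCC-090, 4 of 25 higher and 3 lower (median 0.31). Hexokinase 2, which makes the glucose 6-phosphate that MondoA senses, fell in UM-SCC-47 from 124 to 47.8 CPM, a log2 fold change of −1.38 ± 0.12 (adjusted p = 0.000386). In UPCI-SCC-090 HK2 was at 7.62 and 8.88 CPM, with 0.09 ± 0.27 (adjusted p = 0.850). HK1 had 1.22 ± 0.24 in UPCI-SCC-090 (adjusted p = 0.0122, and 0.056 without DMSO replicate 3). The aldolase gene ALDOC rose in UPCI-SCC-090 by 2.33 ± 0.27 (adjusted p = 0.00379). It also rose in UM-SCC-47, by 0.81 ± 0.18 (adjusted p = 0.0135, and 0.0611 without DMSO replicate 3). The lactate transporter SLC16A1 rose in UM-SCC-47 by 1.61 ± 0.21 (adjusted p = 0.00164). In UPCI-SCC-090 SLC16A1 had 2.23 ± 0.80 (adjusted p = 0.0842, and 0.0346 by RLE size factors). The enolase gene ENO3 fell in both lines, with −1.45 ± 0.29 and −2.92 ± 0.33 (adjusted p = 0.00861 and 0.00379).

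Other targets of the carbohydrate response, many of them genes of fatty acid synthesis in liver, were called in shares close to those of all genes for the upward direction in UPCI-SCC-090 and the downward one in UM-SCC-47. In UM-SCC-47, 1 of 14 was called higher and 4 lower (median −0.25), and in UPCI-SCC-090, 1 of 13 higher and 5 lower (median −0.38). Fatty acid synthase, FASN, fell in UM-SCC-47 from a mean of 265 CPM to 101 (log2 fold change −1.41 ± 0.16, adjusted p = 0.000979), and in UPCI-SCC-090 from 426 CPM to 21.7 (−4.45 ± 0.68, adjusted p = 0.00559). The desaturase gene SCD fell by 2.29 ± 0.19 in UPCI-SCC-090 (adjusted p = 0.0037), whereas UM-SCC-47 had −0.26 ± 0.13 (adjusted p = 0.162). PFKFB3, a regulator of glycolytic flux, fell by 0.87 ± 0.12 in UM-SCC-47 (adjusted p = 0.00196). In UPCI-SCC-090 PFKFB3 had 0.71 ± 0.27 (adjusted p = 0.103, and 0.00739 after GC correction). The gene called higher in UM-SCC-47 was TKFC, with 0.61 ± 0.16 (adjusted p = 0.0254, and 0.105 by library size alone). The gene called higher in UPCI-SCC-090 stayed below a mean of 5 CPM, the floor for naming genes.

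The wider network of MYC, MAX and MLX, whose members compete for partners and E-boxes, had calls in both directions. In UM-SCC-47, 3 of 9 were called higher and 4 lower, and in UPCI-SCC-090, 2 of 10 higher and 4 lower. MYC fell in UM-SCC-47 from 100.3 to 52.8 CPM, a log2 fold change of −0.94 ± 0.14 (adjusted p = 0.00302). In UPCI-SCC-090 it fell by 1.43 ± 0.27 (adjusted p = 0.01), a call that was lost without JQ1 replicate 1 (−1.21, adjusted p = 0.14) or JQ1 replicate 3 (−1.24, adjusted p = 0.064), by RLE size factors (−1.13, adjusted p = 0.060) and without the libraries of steep GC slope (−1.06, adjusted p = 0.126). MAX, the partner of MYC, was at 0.44 ± 0.17 in UM-SCC-47 (adjusted p = 0.0809, and 0.014 without JQ1 replicate 3) and at 0.90 ± 0.21 in UPCI-SCC-090 (adjusted p = 0.0217). The latter call was lost without DMSO replicate 2 (adjusted p = 0.080), DMSO replicate 3 (adjusted p = 0.089) or JQ1 replicate 1 (adjusted p = 0.12) and by library size alone (adjusted p = 0.086). MXD3, a repressor that pairs with MAX, fell by 2.59 ± 0.30 in UM-SCC-47 (adjusted p = 0.00105), and MXD1 fell by 0.79 ± 0.15 there (adjusted p = 0.00687). MXD1 rose in UPCI-SCC-090 by 1.83 ± 0.38 (adjusted p = 0.0142), a call that was lost without DMSO replicate 2 (adjusted p = 0.055), DMSO replicate 3 (adjusted p = 0.062) or JQ1 replicate 1 (adjusted p = 0.057). MXD4, which pairs with MAX as well, rose in UM-SCC-47 by 1.33 ± 0.15 (adjusted p = 0.00106).

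In the thioredoxin and peroxiredoxin system, which holds the protein that TXNIP inhibits, 6 of 13 genes were called higher and 1 lower in UM-SCC-47 (median 0.41), and 4 of 13 higher in UPCI-SCC-090 (median 0.58). In UPCI-SCC-090 no gene of the list was called lower by edgeR (1 at an unadjusted p under 0.05) or by DESeq2 (0). Thioredoxin itself, TXN, was at 227 CPM with DMSO and 733 with JQ1 in UPCI-SCC-090, a log2 fold change of 1.58 ± 0.24 (adjusted p = 0.0055), and had 0.41 ± 0.18 in UM-SCC-47 (adjusted p = 0.117, and 0.035 without JQ1 replicate 3). Thioredoxin reductase 1, TXNRD1, rose in UM-SCC-47 from 364 to 2376 CPM, by 2.69 ± 0.13 (adjusted p = 0.000129). In UPCI-SCC-090 TXNRD1 had 1.00 ± 0.45 (adjusted p = 0.150), and was called by RLE size factors (1.279, adjusted p = 0.047), by DESeq2 (1.30, adjusted p = 0.033), with the replicate block (0.98, adjusted p = 0.025), in 1 fit over the 12 libraries (1.08, adjusted p = 0.015) and without JQ1 replicate 2 (1.34, adjusted p = 0.039). The peroxiredoxin gene PRDX1 rose in both lines by 1.63 ± 0.22 and 1.67 ± 0.17 (adjusted p = 0.00202 and 0.0037), and the mitochondrial reductase gene TXNRD2 fell by 1.5 ± 0.18 in UM-SCC-47 (adjusted p = 0.00122).

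Among other arrestins and the ligases and ESCRT proteins that work with α-arrestins, 5 of 17 were called higher and 1 lower in UM-SCC-47 (median 0.45), and 1 of 18 higher and 2 lower in UPCI-SCC-090 (median −0.02). The gene called higher in UPCI-SCC-090 was TSG101, the ESCRT partner of ARRDC1, with 1.68 ± 0.23 (adjusted p = 0.00469), and it also rose in UM-SCC-47 by 0.95 ± 0.18 (adjusted p = 0.00645). WWP2, a ligase of the NEDD4 family, fell by 0.75 ± 0.16 in UM-SCC-47 (adjusted p = 0.0109) and by 1.34 ± 0.29 in UPCI-SCC-090 (adjusted p = 0.0161). Among other settings, the latter call was lost by DESeq2 (adjusted p = 0.0948) and without the libraries of steep GC slope (−0.80, adjusted p = 0.233). Of the reported cargo, integrin β4 (ITGB4) fell in both lines, with −1.37 ± 0.22 and −3.04 ± 0.45 (adjusted p = 0.00348 and 0.00518). In this list of cargo 2 of 3 were called lower in UM-SCC-47 and none higher (0 by edgeR at an unadjusted p under 0.05 and 0 by DESeq2), and 1 of 4 was called higher (SLC2A1) and 2 lower in UPCI-SCC-090.

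**Figure D4:**
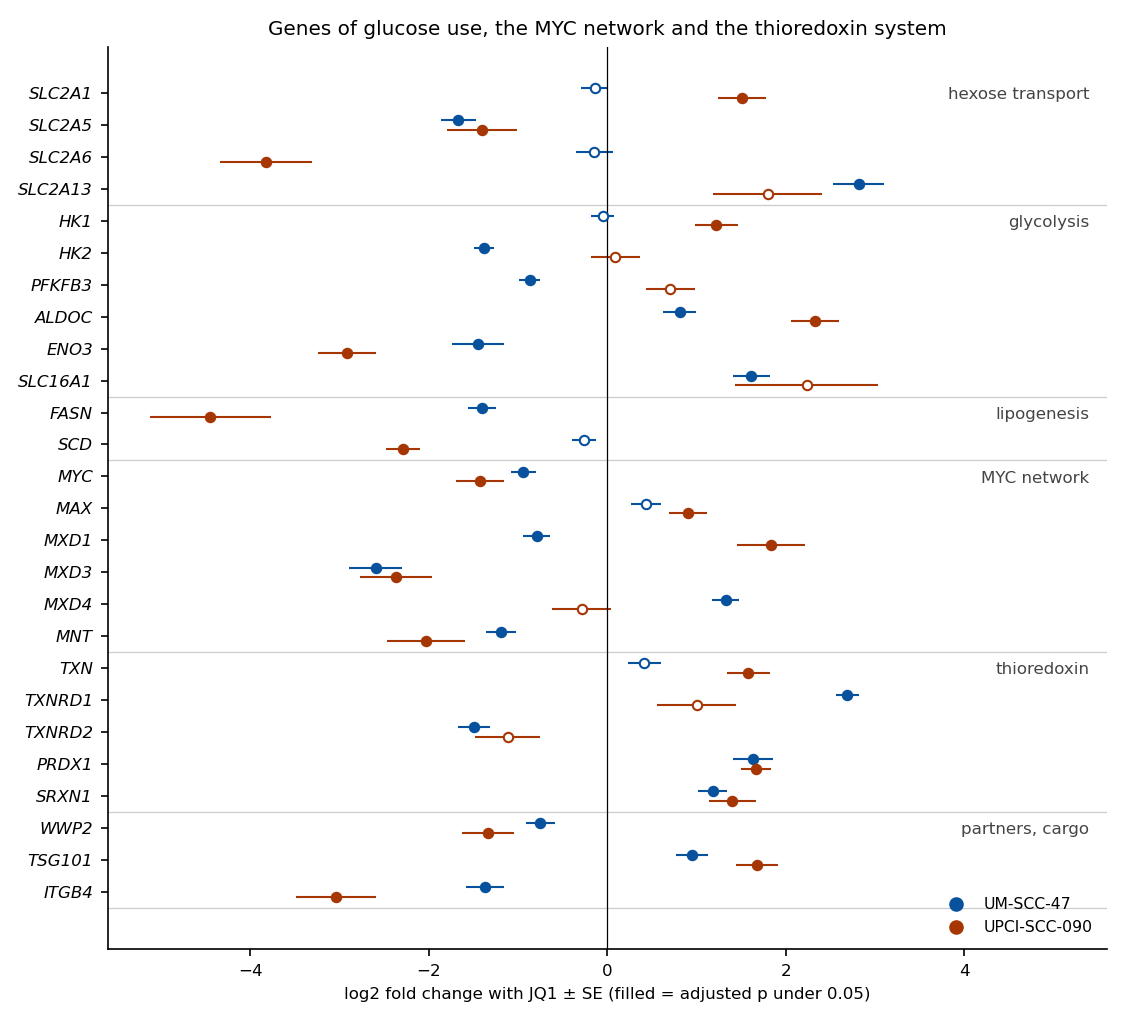
log2 fold changes with JQ1 ± SE (edgeR, n = 3 against 3) of genes named from the lists, in UM-SCC-47 and UPCI-SCC-090. Filled points had an adjusted p under 0.05. In these fits SLC2A1 and TXN are filled in UPCI-SCC-090 (1.51 and 1.58) and open in UM-SCC-47 (−0.14 and 0.41), TXNRD1 is filled in UM-SCC-47 (2.69) and open in UPCI-SCC-090 (1.00), and FASN is filled below 0 in both lines.

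Factors reported to act on TXNIP or ARRDC3 by other routes were listed too. Of 12 FOXO factors and targets tested in each line, 4 were called higher and 1 lower in UM-SCC-47, and 1 each way in UPCI-SCC-090. SESN3 rose in UM-SCC-47 by 3.56 ± 0.44 (adjusted p = 0.00136) and CITED2 by 1.84 ± 0.14 (adjusted p = 0.000309). CITED2 also rose in UPCI-SCC-090, by 1.00 ± 0.26 (adjusted p = 0.0299). Among other settings, that call was lost without JQ1 replicate 1 (adjusted p = 0.144) and by library size alone (adjusted p = 0.0965). IRS2 fell by 2.33 ± 0.34 in UPCI-SCC-090 (adjusted p = 0.00509). Of 8 genes of the glucocorticoid receptor and its targets, 2 were called higher and 1 lower in UM-SCC-47, and 1 higher and 2 lower in UPCI-SCC-090. DUSP1, a phosphatase of MAP kinases, rose in UM-SCC-47 by 2.07 ± 0.16 (adjusted p = 0.000326). Of 5 genes that commonly respond to BET inhibitors, 4 were called higher in UM-SCC-47 and 3 in UPCI-SCC-090, with MYC the 1 called lower in each. The histone gene H2BC21 rose in both lines by 4.26 ± 0.19 and 3.15 ± 0.21 (adjusted p = 0.000129 and 0.00302).

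The calls of the lists depended on single libraries in UPCI-SCC-090. There 19 list genes were called higher, but 12 without DMSO replicate 2, 10 without DMSO replicate 3 and 8 without JQ1 replicate 1. The 22 called lower became 9 without JQ1 replicate 1 and 12 without JQ1 replicate 3. In UM-SCC-47 the 34 called higher became 21 without DMSO replicate 1 or without DMSO replicate 3. In 1 fit over the 12 libraries FASN (−1.39, adjusted p = 0.065), SLC16A1 (1.63, adjusted p = 0.055) and WWP2 (−0.74, adjusted p = 0.073) missed the threshold in UM-SCC-47. By library size alone SLC2A1 (−0.40, adjusted p = 0.0496) and SCD (−0.52, adjusted p = 0.0091) passed it there, and SCD also did after GC correction (−0.30, adjusted p = 0.037) and without JQ1 replicate 2 (−0.34, adjusted p = 0.035).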

How the data were processed

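Total RNA of 12 libraries was sequenced on 2 lanes each after removal of ribosomal RNA. The authors ran Salmon to quantify transcripts and deposited estimated counts for each gene, 1 column per library, not scaled. The tools named in the notes that the submitters gave on processing are Salmon 0.8.2 and DESeq2 1.28.0. A genome build was not given in the sources used here, and Salmon splits reads among similar transcripts, so paralogs, such as SLC2A3 and SLC2A14, are uncertain.

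The deposited estimated counts were rounded and analyzed with edgeR 4.0.16 in R 4.3.3 (filterByExpr with a minimum count of 10 and a minimum total of 15, TMM, quasi-likelihood F test). JQ1 was compared with DMSO in each line, the difference of responses was the interaction over 12 libraries, and the lines were compared with DMSO. Calls needed an adjusted p (Benjamini-Hochberg, over all genes tested) under 0.05, and the SE was obtained from the log2 fold change and F, as its size over √F. Groups came from the labels. Replicates differed by more than sampling noise (chi-square per gene 8.25 to 425), so each counts once.

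Members and lists were chosen with earlier results of these data known. Named genes were all members, from each list and line up to 3 genes per direction with the largest change among called genes (5 CPM or more on average where higher, no overlap), and HEXIM1, SLC2A1, HK2, TXN, MYC and MAX in any case; the text names part of them. For TXNIP and ARRDC4 the 5 genes of the most similar profile were named. Of the list genes ACACA and PECAM1 could not be matched to the table, and 1 gene of the cargo list is not reported here. Symbols, GRCh37 positions, length and GC content came from GENCODE 44, which names 20015 of the gene IDs, and promoters came from RefSeq. TXNIP was placed by its symbol. MLXIP length is that of its longest transcript, the others that of the canonical one.

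Tested on simulated data (200 genes changed), edgeR recovered 80% and 88% of log2 changes of −2 and 2 in UM-SCC-47, where 8.0% of the calls made among 13472 genes were false. The shares recovered in UPCI-SCC-090 were 18% and 38%, and of its calls among 13091 genes 3.12% were false. Changes of −4 and 4 were recovered in 100% and 96% there. In the real UPCI-SCC-090 data 3689 of 13150 genes were called, far more than the 200 changed here. The adjusted p depends on that number, so the simulated shares may not carry over. Alternatives were RLE size factors, library size only, no filter, DESeq2 1.42.0, a replicate block, 1 fit over 12 libraries and each library left out. Chosen after seeing the data were a GC correction and leaving out the 3 libraries of steep GC slope. The correction used as offset a loess curve on GC, per library, of the deviation of log2 CPM from the gene mean.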

Additional observations from a re-analysis of the deposited data

Results flagged for a closer look

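The response to JQ1 differed between the lines, by the interaction test of edgeR, for 16 of the genes named from the lists. Over all list genes tested for it, 18 of 117 were called (15.4%), against 6.56% of all genes. The lists were chosen with earlier results of these data known. Most named genes were then picked for a large JQ1 change in 1 line, which enters this difference. Nothing is read from the share, and the adjusted p-values of the named genes are a description. The values for TXNIP and ARRDC4 (8.20 and 3.66 log2, UPCI-SCC-090 minus UM-SCC-47) are a description as well, since the set was selected on its JQ1 response. The difference was positive for SLC2A1 (1.76, adjusted p = 0.0203), ALDOC (1.61, adjusted p = 0.024), HK2 (1.59, adjusted p = 0.00911), PFKFB3 (1.70, adjusted p = 0.0205) and HK1 (1.39, adjusted p = 0.0364). It was also positive for MXD1 (2.71, adjusted p = 0.00157), TXN (1.26, adjusted p = 0.0328) and TSC22D3, a glucocorticoid target (1.89, adjusted p = 0.02). It was negative for SLC2A6 (−3.61, adjusted p = 0.003), FASN (−2.90, adjusted p = 0.0351), SCD (−1.93, adjusted p = 0.00246), TXNRD1 (−1.62, adjusted p = 0.0424) and TXNRD3 (−2.10, adjusted p = 0.007). It was negative as well for SESN3 (−3.42, adjusted p = 0.0448), IRS2 (−2.21, adjusted p = 0.00888) and the kinase gene SGK1 (−1.80, adjusted p = 0.00254).

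Of the 16 differences of list genes 7 passed the threshold without each library in turn and under the 7 other settings tried, namely those of SLC2A6, HK2, SCD, MXD1, TXNRD3, IRS2 and SGK1. The other 9 missed it without at least UM-SCC-47 DMSO replicate 1, and none of the 16 changed sign. The values without any single library ranged from 1.45 to 1.96 for SLC2A1, from 1.31 to 1.81 for ALDOC, from 1.36 to 1.90 for PFKFB3, from 1.08 to 1.55 for HK1, from −3.26 to −2.43 for FASN, from −1.87 to −1.36 for TXNRD1, from 0.99 to 1.47 for TXN, from −4.43 to −2.97 for SESN3 and from 1.52 to 2.05 for TSC22D3.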

How the results depend on the processing

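Counts of members called with JQ1 describe a set chosen on that response. Higher in UM-SCC-47 they were 2 by library size only and 2 in 1 fit over 12 libraries (ARRDC1 lost). Lower there they were 3 by library size only (ARRDC2 added), 1 in 1 fit over 12 libraries and 1 after GC correction. Lower in UPCI-SCC-090 they were 0 with DESeq2 (MLXIPL lost), 2 with the replicate block, 2 in 1 fit over 12 libraries, 2 after GC correction, and 0 without the libraries of steep GC slope. After GC correction 6 members differed between the lines with DMSO. All genes called higher in UM-SCC-47 were 1348 in 1 fit over 12 libraries (against 2163). In UPCI-SCC-090 they were 635 by library size only, 1915 in 1 fit and 1820 after GC correction (against 1009), those lower 1755 by RLE (against 2680), and list genes 30 higher in 1 fit, 32 higher after GC correction and 14 lower by RLE. Genes whose response differed were 2685 after GC correction and 625 without the steep libraries (against 945).

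With single libraries left out, the members called higher and lower were 2 to 3 and 2 to 2 in UM-SCC-47, 2 to 2 and 0 to 2 in UPCI-SCC-090, 1 to 2 for the difference and 3 to 4 between the lines. All genes called ranged from 1198 to 3051 higher and 2422 to 3756 lower in UM-SCC-47, from 371 to 1303 and 1009 to 2801 in UPCI-SCC-090, from 463 to 1775 for the difference and from 5006 to 8702 between the lines. List genes ranged from 21 to 39 and 17 to 27 in UM-SCC-47 and from 8 to 28 and 9 to 21 in UPCI-SCC-090. The lowest counts of all genes and list genes came without UM-SCC-47 DMSO replicate 1 for UM-SCC-47, the difference and the lines, and without UPCI-SCC-090 JQ1 replicate 1 for UPCI-SCC-090.

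The replicate numbers were not taken to pair the samples, since deviations of same-numbered libraries correlated at −0.15, 0.20 and 0.43 in UM-SCC-47, at 0.095, 0.79 and 0.21 in UPCI-SCC-090 and at 0.053, 0.31 and −0.07 between the DMSO groups, and 3, 4 and 2 of 6 libraries correlated best with their own number. Replicate 2 did have the highest GC slope of each group. The slopes were 0.21 and 0.23 in UM-SCC-47 and 0.66 and 0.44 in UPCI-SCC-090, with DMSO and JQ1. Replicate 2 also had the lowest ARRDC3 and ARRDC4 levels in every group. Whether the replicate number marks a shared batch was not tested. With the replicate block MLXIP was called in UPCI-SCC-090 (−1.18). The cause of these shifts was not tested. Changes of 2 log2 units were often missed in simulated UPCI-SCC-090 data, in which fewer genes changed than were called in the real data. The low counts of ARRDC4 and MLXIPL limit their fold changes.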
